A study of Homo sapiens with 2 samples.

Results

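Accessible chromatin was described at 2 neighbouring families of immune receptor genes on the long arm of chromosome 1, in band 1q23. The SLAM cluster was taken as chr1:160450000-160900000 in hg19, the window given for CD84, SLAMF1, CD48, SLAMF7 and LY9. The FCRL cluster was taken as chr1:157450000-157820000, the window given for FCRL5, FCRL4, FCRL3, FCRL2 and FCRL1. A region belonged to a cluster if its midpoint lay in the window. By this rule 13 of the 23612 regions in the deposited list were members, 7 in the SLAM and 6 in the FCRL window.

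The regions came from ATAC-seq, in which a transposase inserts sequencing adapters into open DNA. The cells were GM12878, an EBV-transformed lymphoblastoid cell line, that is, B cells kept growing by Epstein-Barr virus. The 2 libraries came from separate untreated cultures of this 1 line, with 50000 cells each, and form 1 group. The authors deposited 1 list for both cultures, with a position and a score per region and no value per culture, so depth is unknown and no difference could be tested against replicate error. No genes of hg19 were used here. Regions are therefore placed in a window and not at a gene, and the B-cell identity of the line was not checked against its markers.

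SLAM receptors are cell surface proteins of the immunoglobulin superfamily through which blood cells recognise one another. Most bind a second copy of themselves on the neighbouring cell. The tails of several carry tyrosine motifs that recruit the small adaptor SAP, encoded by SH2D1A. Loss of SAP causes X-linked lymphoproliferative disease, in which Epstein-Barr virus infection is poorly controlled. FCRL proteins resemble the receptors for antibody constant regions, are found mainly on B cells, and mostly dampen signalling from the B-cell receptor. Both families arose by tandem duplication, so their members lie side by side.

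In the RefSeq gene table (GRCh38.p14, used for names and order only), all 10 members were found. No other protein-coding gene stood between the FCRL members, and 1 without a given name, LOC124904439, stood among the SLAM members. The FCRL row began with FCRL5, a receptor for IgG, and FCRL4, a marker of memory B cells in tissue. FCRL3 and FCRL2, which carry inhibitory motifs, came next, and FCRL1, an activating receptor of the family, came last. The nearest other protein-coding genes were ETV3 on the FCRL5 side and CD5L on the FCRL1 side. The SLAM row ran from CD84 and SLAMF1, which bind to themselves, SLAMF1 also being an entry receptor for measles virus. It went on with CD48, a lipid-anchored ligand of CD244, then SLAMF7, which is abundant on plasma cells, and LY9, another self-binding member. Its neighbours were 2 more family members, SLAMF6 before CD84 and CD244 after LY9. Whether they fall within the hg19 window was not resolved.

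Promoter sequences were looked up to show what the receptor genes share that the windows did not use. The RefSeq promoter table (GRCh38.p14, 250 bases before to 50 after the start) held 7 of the 10 members, all on the minus strand: FCRL1, FCRL2, FCRL3, FCRL4, FCRL5, SLAMF1 and CD48. Entries for CD84, SLAMF7 and LY9 were not found. The 100 bases before the start are printed for the 5 FCRL genes and for SLAMF1, 5′ to 3′, to show the ETS core (GGAA, or TTCC read on the other strand) in capitals. ETS factors such as PU.1 are central to B-cell development. These positions are in GRCh38.p14 and cannot be set against the hg19 positions of the regions.
FCRL1 (chr1:157820121-157820220): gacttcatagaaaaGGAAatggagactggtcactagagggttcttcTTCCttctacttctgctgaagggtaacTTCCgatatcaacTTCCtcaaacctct
FCRL2 (chr1:157777133-157777232): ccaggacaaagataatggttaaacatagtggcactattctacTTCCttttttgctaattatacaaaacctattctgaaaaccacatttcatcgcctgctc
FCRL3 (chr1:157700770-157700869): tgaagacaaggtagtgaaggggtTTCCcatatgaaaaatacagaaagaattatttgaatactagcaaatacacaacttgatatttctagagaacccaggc
FCRL4 (chr1:157598086-157598185): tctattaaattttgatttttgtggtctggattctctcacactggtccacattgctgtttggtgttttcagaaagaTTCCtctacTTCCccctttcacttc
FCRL5 (chr1:157552516-157552615): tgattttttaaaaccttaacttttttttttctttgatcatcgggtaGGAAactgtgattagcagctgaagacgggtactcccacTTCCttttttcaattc
SLAMF1 (chr1:160647045-160647144): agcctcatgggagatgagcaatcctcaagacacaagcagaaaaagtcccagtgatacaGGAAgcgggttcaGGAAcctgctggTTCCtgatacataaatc

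The ETS core lay close to the start in FCRL1, FCRL4 and FCRL5 and further out in FCRL2 and FCRL3, and it is so short that nearly every promoter has one. All 7 member promoters held it within their 300 bases, against 95.5% of 35116 promoters in the table. Within 30 bases before the start it lay in 3 of 5 FCRL promoters, in SLAMF1 and CD48, and in 29.8% of all promoters. The core nearest the start ended at base -11 in FCRL1, at -13 in FCRL4 and FCRL5, at -55 in FCRL2 and at -74 in FCRL3, counted from -1 as the last base before the start. The longer form GGAAGT, chosen after the sequences were seen and containing the core, lay in 4 of 5 FCRL promoters and in CD48. It was not in FCRL3 or SLAMF1. In CD48 the match lay after the start, at bases 41 to 46. The longer form was found in 22.8% of all promoters. Within 60 bases before the start, the same 4 FCRL promoters held it and 7.36% of all promoters did. Both lengths and the longer form were picked from these promoters, so the counts are no support for a shared feature. FCRL genes are related copies, so their promoters are not independent examples, and a match of letters is not a measured binding site.

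Of the longer motifs searched on both strands, an AP-1-like sequence lay in most of the FCRL members, but not in most of the other FCRL genes. AP-1 is a dimer of FOS, JUN and BATF family proteins that acts in activated lymphocytes. The letters TGANTCA lay in 4 of 5 FCRL promoters (FCRL1, FCRL2, FCRL3 and FCRL4), in neither SLAMF1 nor CD48, and in 7.71% of all promoters. Among the other genes looked up, counted by promoter, the order was the other way round. The letters lay in 1 of 6 promoters of FCRL6, FCRLA and FCRLB, where FCRL6 and FCRLB have several starts. They lay in 4 of 6 of SLAMF6, SLAMF8, SLAMF9, CD244 and the adaptor genes SH2D1A and SH2D1B. The adaptors are not receptors of the family, and SH2D1B was among the 4. The letters therefore do not separate the FCRL from the SLAM genes. The 40 bases around each match are printed with the match in capitals.
FCRL1 (chr1:157820241-157820280): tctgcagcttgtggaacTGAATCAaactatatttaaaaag
FCRL2 (chr1:157777313-157777352): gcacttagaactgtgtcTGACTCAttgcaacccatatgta
FCRL3 (chr1:157700911-157700950): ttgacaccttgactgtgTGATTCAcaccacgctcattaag
FCRL4 (chr1:157598197-157598236): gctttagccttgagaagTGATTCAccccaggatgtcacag
The form TGACTCA, the usual AP-1 site, was chosen for comparison after these matches were seen. Only FCRL2 had it among the 7 member promoters, and 4.95% of all promoters did. Among the genes outside the member lists, 1 of the 6 FCRL-side and 4 of the 6 SLAM-side promoters had it. The TGANTCA matches of the members began at base -203 in FCRL2, -164 in FCRL3, -143 in FCRL1 and -134 in FCRL4. They did not share a distance from the start.

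The remaining motifs gave no pattern common to a family. An E-box (CANNTG) lay in 5 of 7 member promoters and in 68.7% of all. An NF-kB-like sequence (GGGA and CC with any 4 letters between) lay in FCRL3, where it overlaps an ETS core, and in FCRL5, against 25.6% of all promoters. The RUNX letters TGTGGT lay in FCRL2 and FCRL4, against 13.1%. No member promoter held the OCT octamer ATGCAAAT, the EBF letters CCCNNGGG or the joint ETS-IRF sequence (GGAA and GAAA with any 2 letters between), which lay in 1.77%, 19.1% and 2.82% of all promoters. The member promoters were poor in CpG, with 0 in FCRL4, 1 each in FCRL2 and FCRL3, 2 in FCRL1, 3 in FCRL5 and 5 each in SLAMF1 and CD48. The median over all promoters was 14, and 33.7% had 5 or fewer. Their GC content ran from 36.3% in FCRL5 to 51.0% in SLAMF1, against a median of 58.7% over all promoters.

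**Figure D1:**
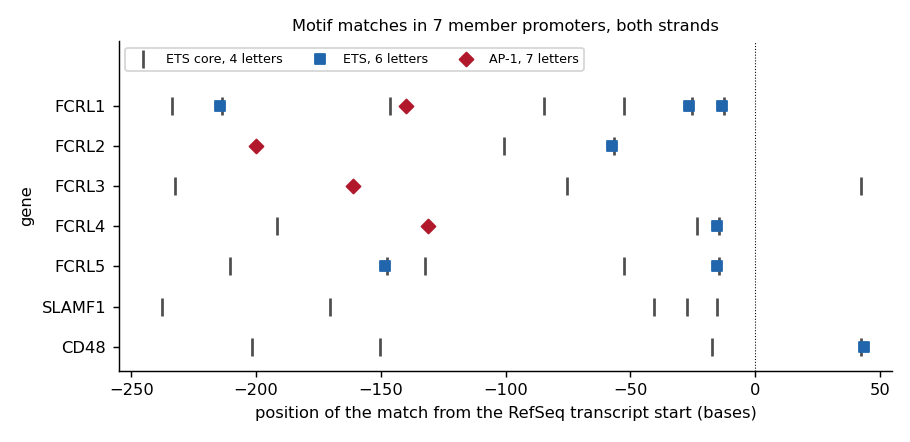
Matches to 3 motifs (symbols) along the promoters of 7 members (rows), with the distance from the RefSeq transcript start in bases on the x axis. The 6-letter ETS form sits just before the start in FCRL1, FCRL4 and FCRL5, further out in FCRL2 and after the start in CD48. Among these 7 genes AP-1-like matches are seen in FCRL1 to FCRL4 only.

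The FCRL window held 6 accessible regions spread along it, and only the last reached the highest score of the list. The score is the authors' whole number per region, from 541 to a cap of 1000, on a scale that is not named in the labels. The name of the list holds the letters IDR, a measure of agreement between replicates, but no label ties the score to it. Scores are used here to rank regions within this list and are not read as a degree of accessibility. The first region, chr1:157493684-157494297, was 614 bp wide and scored 554, and 1.60% of the list scored lower. The second, chr1:157566149-157566505, was the narrowest of the cluster at 357 bp and scored 566. Scores were higher in the middle of the window. The third region, chr1:157622771-157623312, was 542 bp wide and scored 853. The fourth, chr1:157696559-157697025, was 467 bp wide and scored 896. The last 2 regions lie toward the FCRL1 end of the gene order and differ in score by more than any other neighbours in the window. The fifth, chr1:157750751-157751315, was 565 bp wide and scored 661. The sixth, chr1:157776174-157777096, was the widest at 923 bp and was at the cap of 1000, as were 60.1% of all regions.

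The SLAM window held 7 regions, of which none was at the cap. Its regions fell into a part near the start of the window and a tighter part beyond a long interval. The first, chr1:160509900-160510656, was 757 bp wide and scored 853. The second, chr1:160519061-160519881, was 821 bp wide and scored 724. The third, chr1:160596585-160597249, was 665 bp wide and scored 705. No region was listed in the next 140 kb. The fourth, chr1:160737487-160738404, was the widest of the cluster at 918 bp but had the lowest score of all members, 547, and 0.750% of the list scored lower. The fifth, chr1:160752069-160752408, was the narrowest of all members at 340 bp and scored 565. The last 2 had the highest scores of the cluster. The sixth, chr1:160759427-160760314, was 888 bp wide and scored 943, and the seventh, chr1:160765637-160766334, was 698 bp wide and scored 984.

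**Figure D2:**
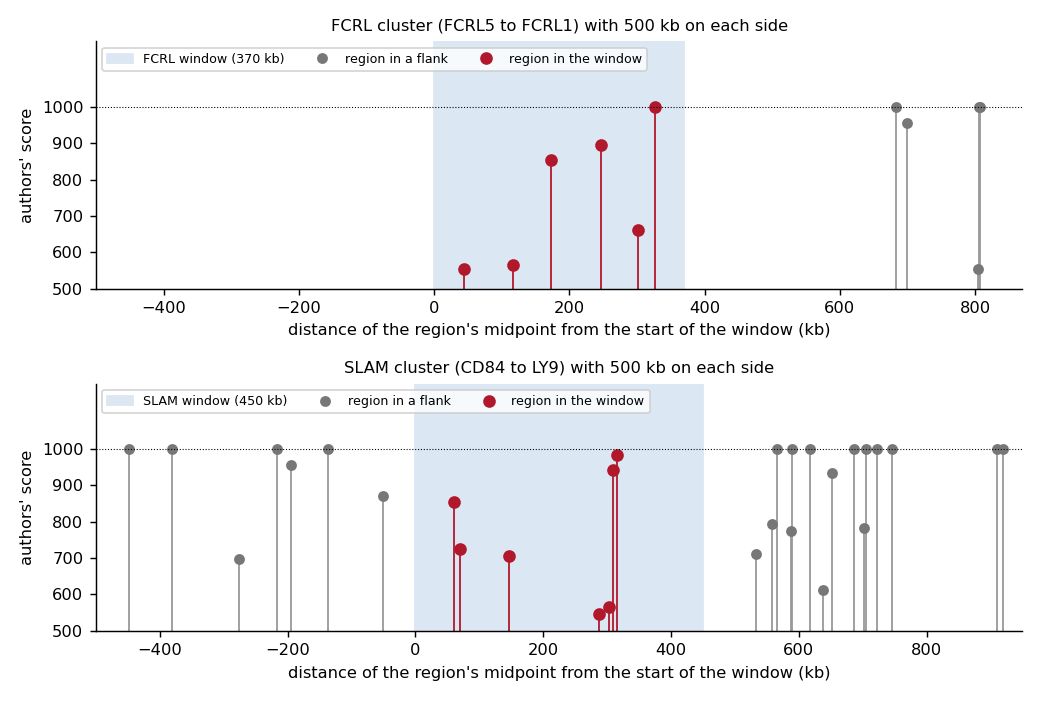
Each stem is a region of the list, at the distance of its midpoint from the start of the window in kb (x axis) and with the authors' score as its height (y axis, drawn from 500), for the FCRL (top) and SLAM (bottom) windows, shaded, and 500 kb on each side. Of the 13 regions in the windows (red), 1 touches the cap of 1000, while 16 of the 27 regions in the flanks (grey) do.

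Fewer of the regions in the 2 windows than of those in the flanks were at the cap. In both windows together, 1 of 13 regions was at the cap, or 7.69% (95% exact Clopper-Pearson interval 0.195 to 36.0%). In the 4 flanks 16 of 27 were, or 59.3% (38.8 to 77.6%), close to the 60.1% of the list. With flanks of 250 kb the share was 46.2%, and with flanks of 1 Mb it was 61.2%. By window, the SLAM cluster had 0 of 7 (0 to 41.0%) and the FCRL cluster 1 of 6, or 16.7% (0.421 to 64.1%). The flanks with regions had 4 of 7 and 9 of 15 around the SLAM window, and 3 of 5 beyond the FCRL1 end. The intervals treat regions as independent, which neighbours on 1 chromosome are not. The contrast was noticed in the list and has no test.

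The clusters were then set beside windows of the same length over the genome. Chromosomes 1 to 22 and X were cut into windows of 450 kb without overlap, with unassembled sequence left in. Of 6737 windows, 1230 (18.3%) held 7 or more regions. Of these 1230, 0 (0%) were without a region at the cap, and among the 324 windows with exactly 7 regions the number at the cap ran from 1 to 7 with a median of 4. With windows of 370 kb, 1442 of 8196 (17.6%) held 6 or more regions. Of these, 30 (2.08%) had at most 1 region at the cap, as the FCRL cluster did. Among the 406 with exactly 6 regions, 18 (4.43%) did. The number of regions in either cluster was thus shared by many windows, while its number at the cap was at the low end for the FCRL cluster and below every such window for the SLAM cluster. These comparisons of the cap were chosen after the scores were seen and used only 1 placement of the windows.

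**Figure D3:**
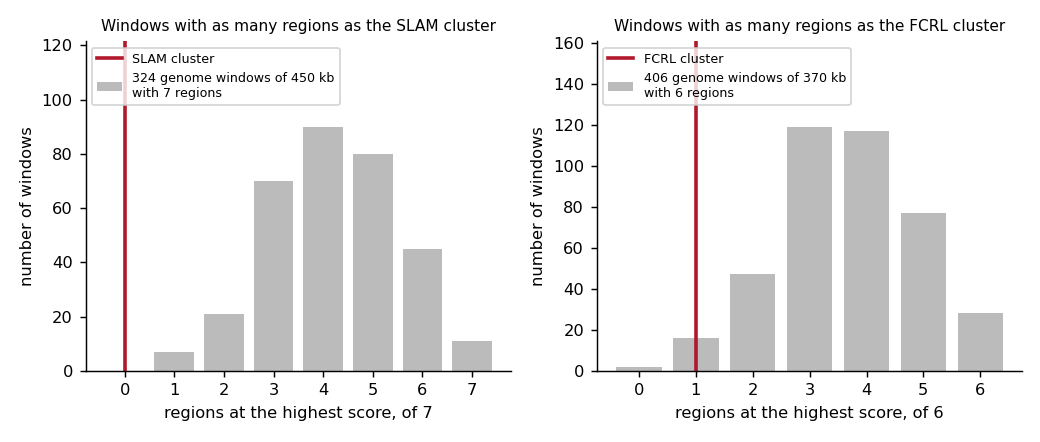
Number of genome windows (y axis) by how many of their regions were at the highest score (x axis), for the 324 windows of 450 kb with 7 regions (left) and the 406 windows of 370 kb with 6 regions (right). The red line marks the SLAM cluster at 0 and the FCRL cluster at 1, with medians of 4 in both sets of windows.

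The clusters were alike in how many regions they held for their length and unlike in how these were spaced. The FCRL window held 16.2 regions per Mb and the SLAM window 15.6, against 8.46 in band 1q23.1, which holds the FCRL regions, and 8.60 in 1q23.3, which holds the SLAM regions. Neighbouring FCRL regions lay a median of 56.3 kb apart, between 24.9 and 73.2 kb, over 5 intervals. SLAM regions lay a median of 11.0 kb apart, between 5.32 and 140 kb, over 6 intervals. The 23421 intervals of chromosomes 1 to 22 and X had a median of 44.1 kb and quartiles of 12.46 and 123 kb. When regions at most 12500 bp apart were joined, each FCRL region stood alone, while SLAM regions formed 4 groups, the first 2 regions in one and the last 3 in another. No region number was skipped within either window.

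The SLAM regions were mostly wider than other regions below the cap. They had a median of 757 bp (340 to 918 bp), and FCRL regions one of 553.5 bp (357 to 923 bp). Over the whole list, the median was 556 bp among the 9432 regions below the cap and 953 bp at the cap. Of the 7 SLAM regions, all below the cap, 6 were wider than 556 bp and 4 wider than 717 bp, the upper quartile below the cap. Of the 6 FCRL regions, 3 were wider than 556 bp, and 1 of these was the region at the cap. Within the clusters the widest SLAM region was also the lowest in score, whereas the widest FCRL region was the highest. Regions covered 1.13% of the SLAM window and 0.937% of the FCRL window, against 0.682% of chromosomes 1 to 22 and X. The 4 flanks together had a higher covered share than either window, 1.19%. By flank it was 1.29% and 2.83% beside the SLAM window, and 0% and 0.629% beside the FCRL window.

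**Figure D4:**
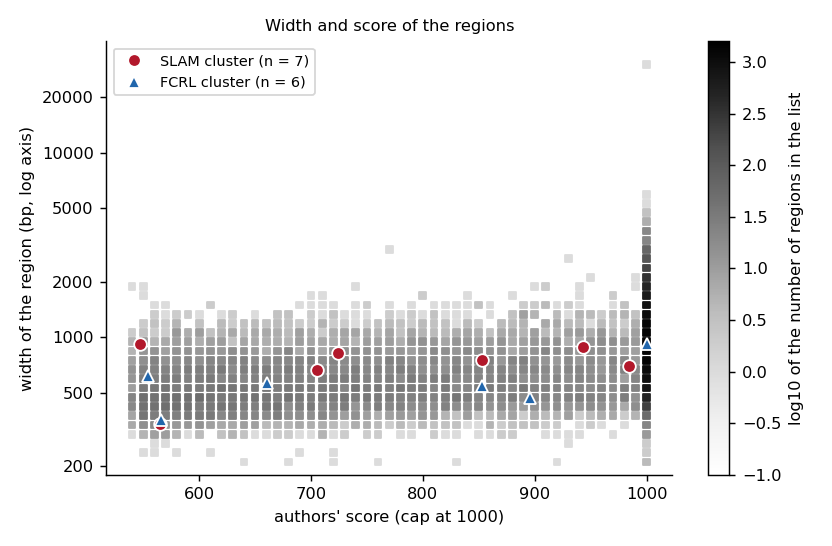
Width in bp on a log axis (y) against the authors' score (x) for the 7 SLAM regions (circles) and 6 FCRL regions (triangles), over all regions of the list, with darker squares for more regions. SLAM regions lie from 340 to 918 bp, all left of the column of regions at the cap of 1000, and 1 FCRL region lies in that column.

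The FCRL window lay among long stretches without a region. The 500 kb before the FCRL window, on the FCRL5 side, held 0 regions, as did 23.2% of 6064 windows of 500 kb. Windows over unassembled sequence, where no region can be listed, were not left out of this share. The flank on the FCRL5 side is part of an interval of 756 kb without a region, and 2.3% of intervals between regions were as long. The 500 kb on the FCRL1 side held 5 regions, after an empty interval of 356 kb (7.63% as long). The widest of these 5 at the cap spanned 942 bp, chr1:158256299-158257240.

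The SLAM window instead lay between populated flanks. The 500 kb on the CD84 side held 7 regions, the widest at the cap being chr1:160067926-160069174 with 1249 bp. The 500 kb on the LY9 side held 15 regions, a number reached by 2.04% of windows of 500 kb, and their widest at the cap was chr1:161014492-161016780 with 2289 bp. Between the last SLAM region and the first region of this dense flank lay 217 kb without a region (14.2% as long). Over all 4 flanks the density was 13.5 regions per Mb, below that of either cluster, but it ran from 0 to 30.0 per Mb among them. The name of the deposited list appears to mark filters for reproducibility, mappability, mitochondrial sequence and blacklisted regions. Since depth and the effect of these filters are unknown, a stretch without a region is not read as closed chromatin.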

How the data were processed

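ATAC-seq regions of 2 GM12878 cultures were analysed from 1 deposited list in hg19, without header. Per the submitters' processing notes, MACS2 2.1.0, BWA 0.7.13, bedtools 2.24.0, Picard 1.92, CASAVA 1.8.4, SAMtools 0.1.19 and Trim Galore 0.3.3 took part, in unstated roles. A transposase shift of the reads is likewise not stated there. Scores were used as deposited, and the deposited start and end were used as positions (start counted from 1 here). Depth is unknown and no precision per culture can be given.

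Regions were assigned by midpoint. Bands came from circlize 0.4.16 and chromosome lengths from GenomeInfoDb 1.38.1. Python 3.11.15, numpy 2.4.6, pandas 2.3.3, scipy 1.17.1 and matplotlib 3.10.9 were used. Counting was tested on simulated data. The 13 regions were all named by rule, with the widest flank region at the cap. The members, windows, gene lists and motifs were chosen with earlier results of these data known. No test was run, since there is 1 group and no value per replicate. Tyrosine motifs of the proteins, planned as a description, were not used here. Alternatives were the score cap, overlap in place of midpoint, a width minimum of 500 bp, other flanks, windows and joining distances.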

Additional observations from a re-analysis of the deposited data

How the results depend on the processing

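Of 30 alternatives, 20 left the value the same and 10 moved it, where the same means within 1.5 times for a count, density, ratio or median and within the 95% exact interval for a share. With only regions at the highest score, the SLAM window held 0 regions, the FCRL window 1 of width 923 bp, and the flanks 8 per Mb in place of 13.5, and no SLAM width remained. Without the FCRL region at the cap, the share of member regions at the cap was necessarily 0%, since no other member was at the cap. Counting only windows with at least 1 region, 24.4% held as many regions as the SLAM cluster and 24.8% as many as the FCRL cluster. Joining at 5 kb left 7 single SLAM regions. Among windows with exactly 6 regions, 4.43% had at most 1 at the cap. The usual AP-1 site lay in 1 member promoter in place of 4. Overlap in place of midpoint changed no count of regions. No paired analysis was possible because the 2 cultures share 1 list, which also kept either culture from being left out.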

Other observations

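The other genes of the 2 families, and the adaptor genes on the SLAM side, were looked up in the same promoter table. SLAMF6, CD244, SLAMF8, SLAMF9, the adaptor genes SH2D1A and SH2D1B, FCRL6, FCRLA and FCRLB had 12 promoters in all, since FCRL6 and FCRLB have several starts. The AP-1-like letters TGANTCA lay in 5 of the 12, of which 1 was among the 6 FCRL-side and 4 among the 6 SLAM-side promoters. The usual site TGACTCA gave the same counts in these promoters. The 6-letter ETS form lay in 3 of the 6 on each side, so none of these motifs was restricted to the members.

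Between the inner flanks of the 2 windows lay 1630 kb with 16 regions, or 9.82 per Mb. Of these, 10 were at the highest score, or 62.5% (95% exact Clopper-Pearson interval 35.4 to 84.8%).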
